A study of Mus musculus with 10 samples.

Results

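Fabp7, Ncan and Ccnd2 are 3 genes often read as signs of immature glia, and their transcripts were followed here with age. The samples were hypothalami of male mice of the inbred strain C57BL/6J at 24 weeks (Young) and 138 weeks (Old). Each age had 5 samples, each hybridised to 1 Clariom S Mouse array, a 1-colour array whose probe sets stand for transcripts. The labels name no treatment, transgene or deletion in either group, and feed and water were freely available to all animals. The 3 genes were chosen by the same values described here: their deposited signal was lower in Old than in Young in an earlier look at these arrays. Their age differences below are therefore a description with no test. Each is measured by 1 probe set of its own (TC1000000508.mm.2 for Fabp7, TC0800002382.mm.2 for Ncan and TC0600003169.mm.2 for Ccnd2). They are 3 of the 19505 genes with a named probe set.

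Fabp7 encodes brain lipid-binding protein, a small carrier of long-chain fatty acids that marks radial glia in the developing brain and stays on in astrocytes and oligodendrocyte precursors of the adult. Ncan encodes neurocan, a chondroitin sulfate proteoglycan of the lectican family that astrocytes and neurons secrete into the matrix around synapses and axons. Ccnd2 encodes cyclin D2, which activates Cdk4 and Cdk6 in the G1 phase of the cell cycle and is known for its part in the division of neural precursors. All 3 are high in the developing brain, but none is specific to one cell type in the adult hypothalamus.

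The stretches just before the start sites of Fabp7 and Ncan are shown. That of Ccnd2 is not, because the set of promoter sequences used here held none for it. Each run is the 250 bases before the RefSeq start site on build GRCm38.p6, on the gene's own strand, taken from RefSeq. Capitals mark matches, on either strand, to TGGGAA (the core bound by RBPJ, the DNA-binding factor of Notch signalling), TTGGC (a half-site of nuclear factor I), ACAAT (a core of SOX factors) and TATAA.
Fabp7, chr10:57784673-57784922, plus strand: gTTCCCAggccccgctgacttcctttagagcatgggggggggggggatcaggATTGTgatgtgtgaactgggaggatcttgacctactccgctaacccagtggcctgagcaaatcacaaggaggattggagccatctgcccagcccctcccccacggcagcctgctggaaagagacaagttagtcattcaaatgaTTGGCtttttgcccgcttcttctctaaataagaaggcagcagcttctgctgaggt
Ncan, chr8:70120845-70121094, minus strand: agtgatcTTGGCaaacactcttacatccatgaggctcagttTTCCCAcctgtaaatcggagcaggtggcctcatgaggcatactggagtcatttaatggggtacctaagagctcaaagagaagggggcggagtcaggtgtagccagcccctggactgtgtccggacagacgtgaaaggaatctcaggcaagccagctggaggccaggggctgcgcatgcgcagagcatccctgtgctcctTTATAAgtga
Both windows held 1 RBPJ core and 1 nuclear factor I half-site, which 21.6% and 41.5% of all 32851 windows of this length also held. The SOX core, held by 27.7% of windows, was in the Fabp7 stretch and the TATAA letters, held by 22.8%, in that of Ncan, where the matches on both strands overlapped. Of the other motifs searched, CCAAT (33.8% of windows) matched in Fabp7 at 2 places, 1 of which overlapped the TTGGC, and GGGCGG (32.7%) matched in Ncan. The E-box CANNTG (66.2%) matched in both, at 2 places in Fabp7 and 4 in Ncan. The AP-1 site TGANTCA (6.75%) matched in neither. These are matches of letters and say nothing of binding.

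The deposited values have a property that bears on every gene below. They were read as log2 signal, because they ran from 5.00 to 12.97 with near-equal quartiles in all arrays, but no base is named. Of the 19505 genes, 19118 had the same very small spread over the 10 arrays (a standard deviation of 1e-05 log2) and are called collapsed: they have a level, but cannot show the size of a change. The varying genes, 276 in number, had a standard deviation of 0.01 log2 or more, and 111 lay between collapsed and varying. Fabp7, Ncan and Ccnd2 all varied, with standard deviations of 0.27, 0.22 and 0.14 log2. Transcripts of hypothalamic neurons were read on every array: the orexin gene Hcrt averaged 9.03 log2 and the melanin-concentrating hormone gene Pmch 10.36 log2. Some arrays also carried transcripts of neighbouring tissue. Young 5 had a mean of 8.55 log2 over 7 varying choroid plexus genes, where the other 9 arrays had 6.56 to 6.76. Young 1, Young 2 and Old 3 had 8.19 to 8.29 over 4 varying genes of striatal projection neurons, where the other 7 had 7.76 to 8.02. Of 10 measured liver genes 2 varied, Alb and Mup2, and 8 were collapsed. Young 3 had a mean of 7.11 log2 over these 2, where Young 1 had 6.28 and the Old arrays at most 6.15.

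Fabp7 averaged 24.5% lower in the Old hypothalamus, and its Old arrays differed widely among themselves. The 5 Young arrays read 10.02, 10.01, 10.39, 10.03 and 10.10 log2 (replicates 1 to 5), and the 5 Old arrays 9.63, 9.45, 10.03, 9.82 and 9.59. Young 3 stood above the rest of its group, and Old 3 reached the level of Young 1, Young 2 and Young 4, so the groups overlapped: 4 of 5 Old arrays lay below every Young array. The means were 10.11 ± 0.16 in Young and 9.70 ± 0.23 in Old (SD, n = 5), a difference of -0.41 log2 (SE 0.12) or a ratio of 0.755. Without Old 3 the difference was -0.49 and the groups no longer overlapped. Without Young 3 it was -0.34.

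Ncan averaged 23.2% lower in Old, with a tight Young group and a spread-out Old one. The Young arrays read 8.41, 8.43, 8.38, 8.32 and 8.35 log2, and the Old arrays 7.91, 7.81, 8.21, 8.05 and 8.01. All 5 Old arrays lay below all 5 Young arrays, with Old 3 the nearest to Young and Old 2 the farthest. The means were 8.38 ± 0.045 and 8.0 ± 0.15 (SD, n = 5), a difference of -0.38 log2 (SE 0.067) or a ratio of 0.768. The Old standard deviation was 3.40 times the Young one for Ncan and 1.41 times for Fabp7, a comparison of 5 arrays with 5 that was not tested. Relative to the Young mean, single Old arrays held from 0.674 (Old 2) to 0.890 (Old 3) of the Ncan signal.

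Ccnd2 averaged 17.3% lower in Old and showed the smallest spread of the 3 genes within the Old group. The Young arrays read 6.64, 6.64, 6.67, 6.64 and 6.75 log2, and the Old arrays 6.33, 6.40, 6.38, 6.45 and 6.41. The groups did not overlap, and each spanned 0.12 log2. Young 5 stood above the rest of its group and Old 1 was the lowest of all. The means were 6.67 ± 0.049 and 6.39 ± 0.045 (SD, n = 5), a difference of -0.27 log2 (SE 0.028) or a ratio of 0.827. Without Young 5 the difference was -0.25 (SE 0.022).

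**Figure D1:**
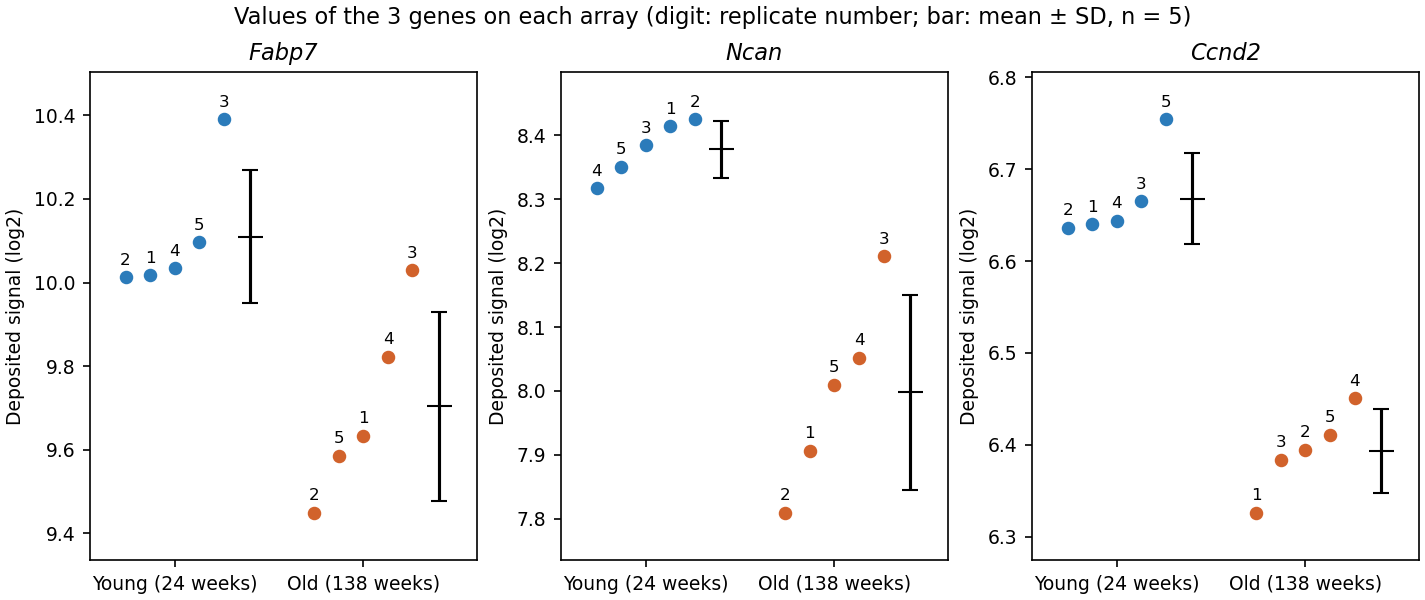
Deposited signal (log2, a separate scale for each gene) of Fabp7, Ncan and Ccnd2 on each array, drawn from low to high within an age; the digit is the replicate number and the bar the mean ± SD (n = 5). Old 3 reads 10.03 for Fabp7, within the Young range, while all Old arrays lie below all Young arrays for Ncan and Ccnd2.

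Groups that did not overlap and were lower in Old made up 0.538% of all genes and 7.25% of the 276 varying genes. Ncan and Ccnd2 are among them, and since both were chosen on this contrast nothing is read from it. In whole tissue, fewer cells of a type and less RNA per cell cannot be told apart, for these 3 genes and for all others below. The labels do not say that every sample was a separate animal, so spreads and tests measure the differences between samples, which may be partly technical.

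After each age's mean was taken off, Fabp7 and Ncan deviated in the same direction on 7 of 10 arrays: Old 3 was high for both (by 0.32 and 0.21 log2) and Old 2 low for both (by -0.26 and -0.19). Over the 10 arrays these deviations had a Pearson r of 0.73 and a Spearman rho of 0.42, and r was 0.65 without Old 3 and Young 3, the arrays farthest out for Fabp7. Among the Young arrays, Young 3, high for Fabp7 by 0.28, was at 0.01 for Ncan. Young 1 and Young 2 were low for Fabp7 (by -0.09 and -0.1) and high for Ncan (by 0.04 and 0.05). The largest shared deviations were thus on Old arrays, and r was not computed for each age alone. Ccnd2 had an r of 0.15 to Fabp7, which was 0.44 without the same 2 arrays, and of 0.08 to Ncan, which was 0.32 without Old 3 and Old 2. Its deviations stayed between -0.07 and 0.09, and on Old 3, the array with the highest Old values of the other genes, it was at -0.01. These correlations describe 10 arrays that share their normalization, with no test.

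**Figure D2:**
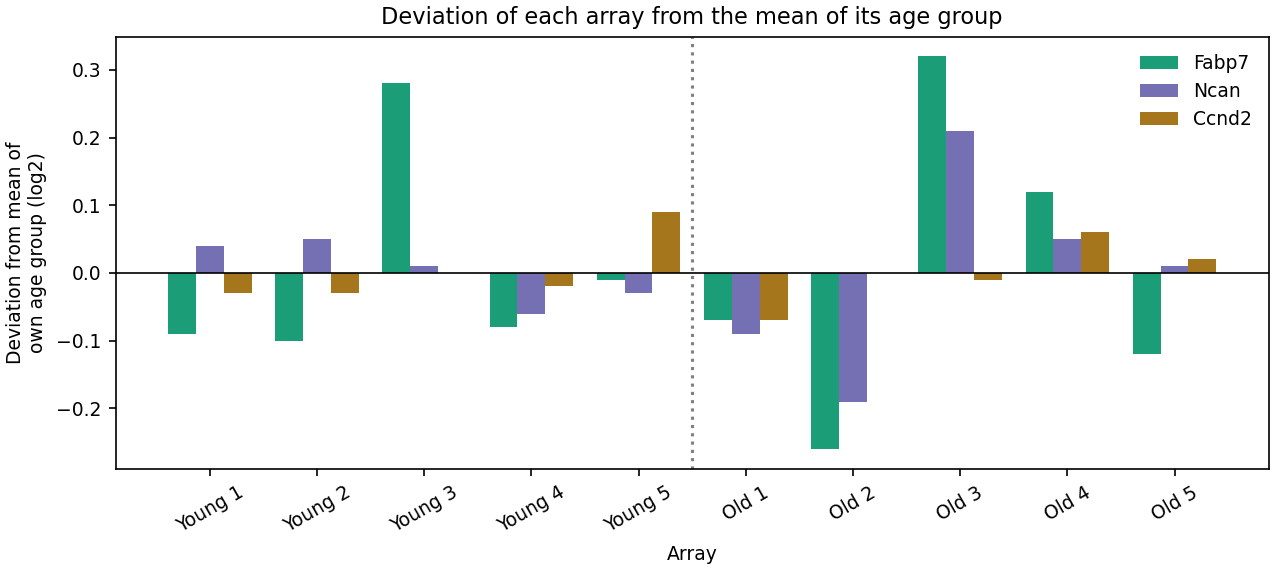
Deviation of Fabp7, Ncan and Ccnd2 from the mean of the array's own age group (log2) on each of the 10 arrays, with the dotted line between Young and Old. Fabp7 and Ncan are both high on Old 3 and both low on Old 2, while Ccnd2 deviates by at most 0.09.

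The deviations of each gene went with markers of neighbouring cells, in part the same ones for Fabp7 and Ncan. The lists described were picked out after their values were seen. Fabp7 went with the 9 varying of 15 measured genes of myelinating oligodendrocytes, with an r of 0.73 within ages (0.51 without Young 3 and Old 4). The mean of these 9 genes was 10.03 to 10.24 log2 on the Young arrays and 10.13 to 10.27 on the Old ones. Its members differed with age in both directions, from Cldn11 at -0.24, Ugt8a at -0.10 and Mal at -0.05 to Trf at 0.22 and Apod at 0.58, so this mean is no single measure of oligodendrocyte content. Young 3 had the highest Young value of both. With the oligodendrocyte mean as a covariate the age difference of Fabp7 was -0.58 log2 (SE 0.10), and the part of oligodendrocyte content in it was not tested further.

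Ncan went with the striatal genes, with an r of 0.70 over the 4 varying of 10 measured (0.42 without Old 3 and Young 2). It went against the 6 varying of 20 measured genes of hypothalamic neurons (-0.72, and -0.65 without Old 2 and Young 2). To the 9 varying myelin genes its r was 0.40 (0.52 without Young 3 and Old 4). To the mean of Bcas1 and Gpr17, the 2 varying genes of the oligodendrocyte lineage list, it was 0.50 (0.56 without Old 4 and Young 5). Of lists with 1 varying gene, Nnat of the neuroblast list had an r of -0.81 to Ncan (-0.67 without Old 2 and Young 5). Ppp1r1b of the tanycyte list, which is also 1 of the 4 striatal genes, had 0.72 (0.47 without Old 3 and Young 2). The striatal mean was 7.83 to 8.29 log2 on the Young arrays and 7.76 to 8.28 on the Old ones. With it as a covariate the Ncan difference was -0.36 (SE 0.051), and without Young 1, Young 2 and Old 3 it was -0.41 (SE 0.061). Among these 3 arrays alone, Old 3 read 8.21 for Ncan where Young 1 and Young 2 read 8.41 and 8.43. For Ccnd2 it read 6.38 against 6.64 in both, but for Fabp7 10.03 against 10.02 and 10.01. The Fabp7 difference without the 3 arrays was -0.55 (SE 0.12). The part of striatal tissue in these differences was not tested further.

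Ccnd2 went with the choroid plexus genes, with an r of 0.73 over the 7 varying of 11 measured, and of 0.31 without Young 5 and Young 2. The choroid mean was 6.56 to 8.55 log2 on the Young arrays and 6.57 to 6.72 on the Old ones. With it as a covariate the Ccnd2 difference was -0.25 (SE 0.022). Ccnd2 also went with the 6 varying astrocyte genes (r of 0.72, and 0.41 without Old 4 and Old 1), whose mean was 10.19 to 10.25 on the Young arrays and 10.08 to 10.21 on the Old ones. Among the list means the highest r to Ccnd2 was that of Hdc, the histidine decarboxylase gene and the 1 varying gene of the ependymal list, at 0.78 both with all arrays and without Young 5 and Young 4. Hdc read 8.13 to 8.40 log2 on the Young arrays and 8.14 to 8.31 on the Old ones. The other 12 of the 13 measured ependymal genes were collapsed, so this r is that of 1 gene and no measure of ependymal cells. No detection call came with the values, so no marker can be called absent. The part of astrocyte content in the Ccnd2 difference was not tested.

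**Figure D3:**
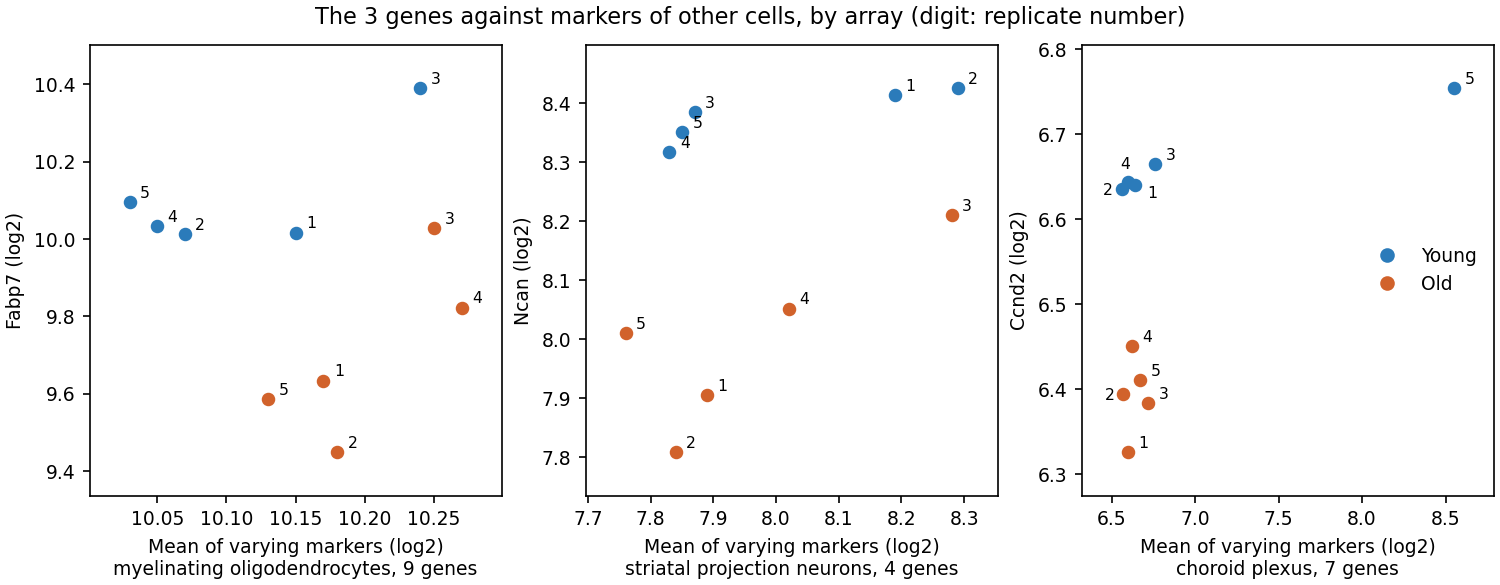
Value of each gene (log2) against the mean of the varying markers of one other cell type or tissue (log2), by array, with the replicate number beside each point. Old 3 lies at 8.28 on the striatal axis, near Young 1 and Young 2, and reads lower than both for Ncan. Young 5 stands alone at 8.55 on the choroid plexus axis.

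The varying genes most like each of the 3 were searched among the other 275, by Pearson r over the 10 arrays. The median r over those 275 genes was 0.13 for Fabp7, 0.09 for Ncan and 0.08 for Ccnd2, and any gene that differs with age gains from the age step. Nearest to Fabp7 were Chn2, which encodes the Rac regulator beta-chimaerin (0.93), Gm21953 (0.91), Tmem50b, Cox8a, a subunit of cytochrome c oxidase, and the oligodendrocyte claudin gene Cldn11 (each 0.90). Nearest to Ncan were Plppr2 (0.90), Rnf122, Fabp7 itself, Tmem50b and Kcnj10, the Kir4.1 potassium channel of glia (each 0.89). Ccnd2 lay nearest to Kcnj10 (0.96) and to Ntsr2, a neurotensin receptor of astrocytes (0.93). Next came Gpr17, a receptor of cells about to become oligodendrocytes (0.91), and the fatty acid desaturase genes Fads2 (0.90) and Fads1 (0.89). Kcnj10 read 9.88 to 9.94 log2 in Young and 9.19 to 9.51 in Old. As for Ccnd2, its lowest array was Old 1 and its highest Old array was Old 4.

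With the age step removed, most of the nearest genes were others. The median r within ages over the 275 genes was 0.09 for Fabp7, 0.09 for Ncan and 0.15 for Ccnd2. For Fabp7 they were Chn2 (0.88), Pmp22, a myelin protein gene (0.84), Car2, a carbonic anhydrase of oligodendrocytes (0.82), Gm21953 (0.81) and Ermn, which encodes the myelin protein ermin (0.80). Pmp22 differed by 0.53 log2, the opposite direction to Fabp7, with an adjusted p of 0.0979 in limma's fit to all genes and of 0.00157 among the varying genes. For Ncan the nearest were the neuronal transcription factor gene Mef2c and Mctp1 (each 0.88), the phosphodiesterase gene Pde1a, Rasgrp1, an activator of Ras, and the enkephalin precursor Penk (each 0.87). None of these 5 passed in either fit, with differences from -0.19 (Rasgrp1) to 0.03 (Pde1a), and Penk is one of the striatal markers above. For Ccnd2 they were Sulf1, a heparan sulfate sulfatase (0.88), Clic6 (0.88), Herc6 (0.84), Kl, which encodes klotho (0.82), and Lbp (0.80). Clic6 and Kl belong to the choroid plexus list, and Young 5 was highest for Clic6 at 8.33 log2. Each of these genes near Ccnd2 deviated most from its age mean on Young 5, as did Ccnd2 itself (by 0.09). The deviations there were 0.11 for Sulf1, 0.57 for Clic6, 0.14 for Herc6, 1.54 for Kl and 0.54 for Lbp. Their r to Ccnd2 was not computed without Young 5, so the part of this array in it was not tested.

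Genes related to these 3 by family, pathway or cell type were taken from 9 lists. They were tested with limma, Old against Young, over all 19505 genes with Benjamini-Hochberg adjustment at a threshold of 0.05. Of 205 listed genes 194 were measured, and 5 varied: L1cam, Cdkn1a, Gpr17, Bcas1 and Nnat. Of the 194, 1 rose and 0 fell, where 0.19% of all genes rose and 0.0308% fell. At an unadjusted p under 0.05 in the same fit, 11 of the 194 were higher and 7 lower. Of all 19505 genes 703 were higher and 628 lower at that level, and nothing is read from these counts. A fit restricted to the 276 varying genes called 24.6% of them higher and 11.2% lower, and of the 5 it called 1 in each direction. The median difference over the 194 genes was 6.3e-07 log2, and over all genes -8.7e-08. Since 184 of the 194 were collapsed and 5 lay between, these counts do not show that the pathways or cell types stayed the same with age.

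The fatty acid-binding list, with the carriers related to Fabp7 and the enzymes and receptors that use fatty acids, had 22 measured genes, of which 0 varied. Fabp3, the heart-type carrier of neurons, was collapsed at 9.37 log2, Fabp5, the epidermal-type carrier, at 7.84 and the myelin carrier Pmp2 at 5.28. Of the 24 measured genes of radial glia and neural stem cells, and of the 23 of the Notch pathway, 0 varied either. The label of immature glia could therefore not be checked against these 2 lists. The oligodendrocyte lineage list, described below, had 2 varying genes, which went opposite ways: Gpr17 at -0.20 log2 and Bcas1 at 0.47. The label itself was not tested.

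For Ncan, the related lecticans Acan (6.73 log2), Bcan (8.70) and Vcan (7.98), core proteins of the same matrix, were all collapsed. Of the 20 measured matrix genes only L1cam varied, which encodes an adhesion molecule that neurocan binds. It read 10.29 ± 0.041 in Young and 10.18 ± 0.073 in Old (SD, n = 5), a difference of -0.11 (SE 0.035) that passed neither fit (adjusted p = 0.599, and 0.0535 in the varying genes alone). Of the 25 measured enzymes that cleave lecticans or build chondroitin sulfate, 0 varied.

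For Ccnd2, the sister cyclin gene Ccnd3 (8.43 log2) and the partner kinase genes Cdk4 (8.58) and Cdk6 (6.75) were collapsed, and Ccnd1 was not analysed here. Among the 24 measured G1 genes only Cdkn1a varied, which encodes p21, an inhibitor of cyclin-dependent kinases. Its means were 7.78 ± 0.18 and 7.75 ± 0.15 (SD, n = 5), with overlapping groups and a difference of -0.03 (SE 0.099, adjusted p = 0.982, limma over all genes). Of the 20 measured genes of proliferation, such as Mki67 and Top2a, 0 varied, so the values cannot show whether cell division changed beside Ccnd2.

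The oligodendrocyte lineage list held the varying genes that did pass, and they went opposite ways. Bcas1, which marks oligodendrocytes that are beginning to myelinate, read 9.45 ± 0.094 log2 in Young and 9.93 ± 0.072 in Old (SD, n = 5). It rose by 0.47 (SE 0.05, adjusted p = 0.00481, limma over all genes) or 1.39-fold. The call was lost without Young 1, Young 2 and Old 3 together (adjusted p = 0.0679, difference 0.52) and held when any single array was left out (0.00865 to 0.0228). Gpr17 read 7.23 ± 0.037 in Young and 7.03 ± 0.083 in Old (SD, n = 5), a difference of -0.20 (SE 0.038, ratio 0.868) with no overlap between the groups. It missed the threshold over all genes (adjusted p = 0.126) and fell in the varying genes alone (adjusted p = 0.00353, limma). The remaining 18 of the 20 measured genes of this list were collapsed. Among 21 measured neuroblast genes only Nnat varied, at -0.06 (SE 0.063, adjusted p = 0.918, limma over all genes).

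Astrocytes are a main source of Fabp7 and Ncan in the adult brain. Of 25 measured astrocyte genes, 1 rose and 3 fell in the fit over all genes, where 0.19% of all genes rose and 0.0308% fell. Those that fell were Kcnj10, by 0.48 log2, Ntsr2, by 0.30, and Slc7a10, a carrier of small neutral amino acids. Slc7a10 lay between collapsed and varying and changed by -0.00045 log2. The call of Slc7a10 was lost without Young 3, Young 4, Young 5 or Old 4 (adjusted p = 0.0577 to 0.0639). That of Kcnj10 held without any single array but was lost without Young 3 and Young 5 together (0.168) and without Young 1, Young 2 and Old 3 (0.315). Of the 6 varying astrocyte genes, 1 rose and 3 fell in the varying genes alone, a fit that called 24.6% of its genes higher and 11.2% lower. The third to fall was Gja1, a gap junction gene, at -0.14 (SE 0.043, adjusted p = 0.0353, limma). That call held without Young 3, Old 3 or Old 4 and was lost without each of the other arrays in turn (0.0532 to 0.0763). Gfap, the intermediate filament of reactive astrocytes, rose by 0.44 (SE 0.065, adjusted p = 0.0396, limma over all genes), a call that held without Young 5 or Old 5 and was lost on leaving out any other array (0.094 to 0.142). The glutamate transporter gene Slc1a2 and the glycolytic gene Aldoc read 0.00 (SE 0.026) and 0.06 (SE 0.032) and did not pass.

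**Figure D4:**
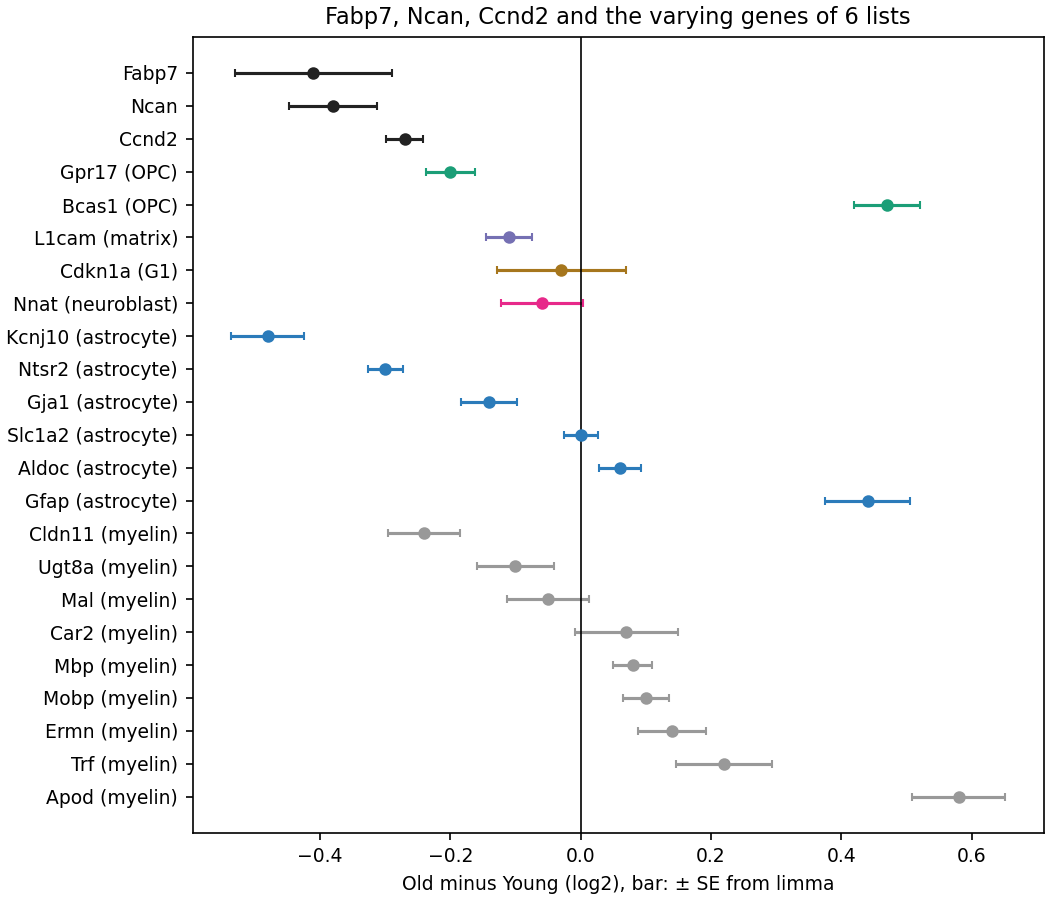
Difference Old minus Young (log2, dot) with limma's SE (bar) for Fabp7, Ncan and Ccnd2 and for the varying genes of 6 lists, with OPC standing for the oligodendrocyte lineage list. Fabp7, Ncan and Ccnd2 lie between -0.41 and -0.27, next to Kcnj10 at -0.48 and Ntsr2 at -0.30, while Bcas1 and Gfap lie at 0.47 and 0.44.

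For the remaining lists of other cells, the shares called were again 0.19% higher and 0.0308% lower over all genes. In the varying genes alone they were 24.6% and 11.2%. The 14 measured microglial genes had 3 that rose and 0 that fell over all genes: Ctss, Trem2 and C1qc, of which only Ctss varied (0.91 log2, SE 0.047). Trem2 and C1qc differed by 0.0017 and 0.0059 log2. The call of Trem2 was lost with median centring (adjusted p = 0.683), with quantile normalization (0.629), without Young 3 and Young 5 (0.141) and without Young 1, Young 2 and Old 3 (0.153). The call of C1qc held without Old 5 and was lost without each of the other arrays (adjusted p = 0.0585 to 0.098). Among the varying genes alone Ctss, C1qa (0.34, SE 0.056, adjusted p = 0.00146) and C1qb (0.29, SE 0.048, adjusted p = 0.00148) rose in limma's fit. The mean of the 3 varying microglial genes was 7.94 to 8.04 log2 on the Young arrays and 8.37 to 8.58 on the Old ones, so it moved with age opposite to the 3 genes, and its part in their differences was not tested. Of the 15 measured myelin genes Apod rose by 0.58 (SE 0.071, adjusted p = 0.0125, limma over all genes), a call lost without Young 4 (0.055) or Old 4 (0.0537). Among the varying genes alone Apod and Trf, the transferrin gene, rose and Cldn11 fell. Trf differed by 0.22 (SE 0.074, adjusted p = 0.0397), a call that held without Young 3 or Old 5 and was lost without each of the other arrays (0.0543 to 0.0903). Cldn11 differed by -0.24 (SE 0.055, adjusted p = 0.00828), with no overlap between the ages. Lists of tanycytes (19 measured genes, 1 varying), ependymal cells (13 and 1), endothelium and mural cells (14 and 1), choroid plexus, liver (10 and 2), striatal neurons and hypothalamic neurons had 0 calls in either direction over all genes. In the varying genes alone 1 hypothalamic gene rose (Avp) and 1 fell (Sst, a call lost without Young 1, Young 3, Young 4 or Old 5, with adjusted p from 0.05 to 0.0624).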

How the data were processed

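Total RNA of 10 hypothalamus samples was labelled as biotin cDNA from 100 ng per sample, per the labels' protocols. The authors deposited a value for each probe set on each array, which was read here as log2 signal although no base is named. Their background correction, normalization and summarisation stay unnamed (not given in the sources used here). Of 22206 probe sets, 19572 have 1 gene symbol in the platform's annotation, 0 several and 2634 none. All 19572 gene identifiers matched RefSeq (GRCm38.p6). Each gene is represented by its probe set of highest average signal. Old was compared with Young by limma (version 3.58.1, R 4.3.3), with lmFit and eBayes, 2-sided, and Benjamini-Hochberg adjustment over all 19505 genes. Differences are Old minus Young, with limma's SE. A second fit used the 276 varying genes. The procedure was also run on simulated data, with ordinary noise for every gene or with the deposited spreads. With the deposited spreads, changes were planted in varying genes alone, so the runs do not show how changes in collapsed genes are read.

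The 3 genes, the lists, the tests and the alternatives were chosen with earlier results of these data known. Named genes are the 3, their close relatives, from each list at most 6 genes that passed in either fit, and the 5 varying genes with the highest Pearson r to each, over all arrays and within ages. Other named genes were chosen after their values were seen. The number of arrays limits the precision.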

Additional observations from a re-analysis of the deposited data

Results flagged for a closer look

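For the 3 genes, Bcas1, Gpr17 and 10 means of varying markers, the lowest and highest array of each age was compared with its nearest neighbour. Of 30 groups, 3 had an array whose gap exceeded 0.71 of the group's range, and chance gives about 1 in 20 groups. Fabp7 in Young was highest on Young 3, at 10.39 log2, with the next array at 10.10. Ccnd2 in Young was highest on Young 5, at 6.75 against 6.67 log2. The choroid plexus mean in Young was highest on the same Young 5, at 8.55 against 6.76 log2.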

How the results depend on the processing

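The 3 genes were chosen as lower in Old, so the direction of their age differences is no test and only the sizes are described. Over the 19 alternatives these ran from -0.58 to -0.32 log2 for Fabp7, -0.43 to -0.33 for Ncan and -0.29 to -0.25 for Ccnd2. Averaging all probe sets of a gene and blocking by replicate number could not move them. Each gene has 1 probe set, and each replicate number occurs in both ages. Leaving out single arrays gave -0.49 to -0.34, -0.43 to -0.33 and -0.29 to -0.25. The alternatives without Young 1, Young 2 and Old 3 and with marker means as covariates were added after seeing the data. The 9 lists of related genes gave 1 higher and 0 lower call over all genes, and the same when any single array was left out. Quantile normalization gave 2 higher and 65 lower, of which 64 calls were genes that did not vary; it raised their median SD from 1e-05 to 0.00078 log2. The lower calls were 1 with median centring, 1 in the varying genes alone and 1 with an SD of at least 0.05, each time Gpr17, and 2 with a trended robust prior (Stmn1 and Tubb3, by under 0.001 log2). The higher calls were 0 without Young 1, Young 2 and Old 3, where Bcas1 had a difference of 0.52 and an adjusted p of 0.0679. Titles number the samples of both ages, but same-numbered arrays did not deviate together (correlations from -0.22 to 0.28 over the varying genes), and 1 of 10 arrays correlated best with its own number. With the replicate block the higher calls were 0 (Bcas1 0.47, adjusted p = 0.1), calls over all genes fell from 37 higher and 6 lower to 10 and 1, and the differences of the 3 genes were -0.41, -0.38 and -0.27. Over all genes the calls were 47 and 8 with median centring, 154 and 6464 with quantile normalization, 22 and 2 without Young 3 and Young 5, 4 and 1 without Young 1, Young 2 and Old 3, 21 and 2 at an adjusted p under 0.01, and 25 to 37 higher and 4 to 9 lower without single arrays. The cause of these shifts was not tested. The very small deposited spread limits what the collapsed genes can show.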
